A study of Mus musculus with 6 samples.

Results

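The Slc25 genes encode the mitochondrial carrier family, and they were described here across oviducts labelled as Mettl3-deleted (d/d) or floxed (f/f). Every symbol made of Slc25a and a number was taken, which gave 47 genes of the 55363 gene symbols in the tables. Of these, 39 had a mean level of at least 1 FPKM over the 6 libraries and were tested among 15438 genes, 5 were detected below that level, and 3 were listed at 0 in every library. FPKM divides the fragments assigned to a gene by its transcript length and by the depth of the library, a scale on which genes of different length can be set side by side.

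Slc25 carriers are nuclear-encoded proteins of the inner mitochondrial membrane, with a few members in the outer membrane or in peroxisomes. They exchange nucleotides, phosphate, carboxylic and amino acids, acylcarnitines, cofactors, iron and glutathione between the cytosol and the matrix, and so link glycolysis, oxidative phosphorylation, heme and iron-sulfur cluster synthesis and antioxidant defence. Newly made carriers pass the outer membrane through the TOM complex, are escorted by small TIM chaperones and are inserted by the TIM22 complex. In the oviduct, ATP from mitochondria serves ciliary beating, muscle contraction and secretion.

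RNA was sequenced from whole oviducts of pregnant mice on gestational day 3, counted from the vaginal plug as day 1, after females of 6 to 8 weeks had been mated with fertile males. There were 3 libraries labelled Mettl3 d/d and 3 labelled Mettl3 f/f. Mettl3 is the catalytic subunit of the enzyme that writes N6-methyladenosine on RNA. By common usage, f/f stands for floxed alleles and d/d for deleted ones. The sources used here give neither the Cre driver nor the deleted exons. They do not say whether each library is a separate animal, and p-values therefore cover only the spread among libraries, which may be technical. Because the tissue is whole oviduct, fewer cells of a type and less RNA per cell cannot be told apart.

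In libraries with the d/d label Mettl3 itself was higher, at 19.8, 20.3 and 24.5 FPKM, against 11.8, 12.1 and 13.2 FPKM in f/f (log2 change 0.75, SE 0.12, limma adjusted p = 0.0145, and 0.0688 without f/f replicate 2). A value per gene cannot show a missing exon, so it checks no label, and the directions given here depend on the labels. The libraries listed 21085 to 21868 genes above 0 in d/d and 21431 to 22211 in f/f. The oviduct glycoprotein Ovgp1 was at 2651 to 5059 FPKM in d/d and 4264 to 5690 FPKM in f/f. All 7 macrophage markers rose in d/d (summed level 921 to 1233 FPKM in d/d, 329 to 420 FPKM in f/f), as did 4 of 6 proliferation markers (49.5 to 74.9 FPKM in d/d, 22.5 to 32.6 FPKM in f/f). The 8 multiciliated markers summed to 61.8 to 289 FPKM in d/d and 209 to 442 FPKM in f/f. All 8 had a negative log2 change (-1.40 to -0.79), and 1 of them, Rfx2, fell. For the others a difference was not detectable at this spread. Smooth muscle markers (1 of 5, Des, fell) summed to 2398 to 3869 FPKM in d/d and 1926 to 4561 FPKM in f/f. Adipocyte (3 of 6 tested), erythroid (4 of 6), skeletal muscle (2 of 5, with Myh4 at 0 in every library) and ovary markers (4 of 5) had 0 calls by limma in either direction, and 1 of these 13 genes was lower at an unadjusted p under 0.05. Their summed levels were 0.292 to 8.62, 39.2 to 84.4, 1.35 to 2.54 and 6.30 to 7.65 FPKM in d/d, against 2.40 to 64.5, 73.2 to 108, 1.81 to 10.7 and 6.28 to 37.5 FPKM in f/f. Of 6 secretory epithelial markers, Ltf and Epcam rose. Of 5 stromal markers, Lum rose and Pdgfra fell. Genes of mitochondrial DNA held 6.50% to 9.70% of all FPKM in d/d and 3.61% to 5.70% in f/f. The part of these differences in the carrier results was not tested. Replicate 1 of f/f stood apart within its group, with the homeobox gene Hoxa10 at 3.48 FPKM there and 26.5 and 25.1 FPKM in f/f replicates 2 and 3. The smooth muscle markers summed to 1926 FPKM there, below every d/d library, and to 4407 and 4561 FPKM in f/f replicates 2 and 3, above every d/d library.

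The summed level of the carriers overlapped between d/d and f/f oviducts, and 4 members rose. The 47 genes summed to 1365, 1281 and 1528 FPKM in d/d and 1202, 1499 and 1471 FPKM in f/f, with means of 1391 ± 126 FPKM in d/d and 1390 ± 164 FPKM in f/f (SD, n = 3 each). The likeness of the means rests on f/f replicate 1, the lowest library, while f/f replicates 2 and 3 lay within the d/d range. Of the 39 tested, Slc25a5, Slc25a28, Slc25a45 and Slc25a51 rose and 0 fell by limma with a Benjamini-Hochberg adjusted p under 0.05 over all 15438 genes. Over all genes tested, 6.04% were called higher in d/d and 4.97% lower (1701 of 15438 in either direction), so the 4 of 39 carriers called (10.3%) are near the share of all genes. At an unadjusted p under 0.05 there were 6 carriers higher and 5 lower, 28.2% of those tested, against 29.6% of all genes. Without f/f replicate 1 the same 4 carriers were called higher and 3 were called lower (Slc25a11, Slc25a33 and Slc25a48), and without d/d replicate 1 only Slc25a5 was called; without any of the other 4 libraries 0 were called by limma. Groups were separate, with no overlap, in 15 carriers, 7 higher and 8 lower in d/d, which is 38.5% of them, against 35.6% of all genes tested. The median log2 change, d/d minus f/f on the log2(FPKM + 1) scale, was -0.10 over the carriers and -0.01 over all genes tested.

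The levels of the members spanned a wide range. Slc25a3, the phosphate carrier that supplies ATP synthase, was the most abundant, and it alone held 24.4% to 26.3% of the summed carrier FPKM in d/d libraries and 21.2% to 23.0% in f/f libraries. A mean level over 100 FPKM was seen in 4 members (Slc25a3, Slc25a4, Slc25a48 and Slc25a11), a mean of 10 to 100 FPKM in 20, and a mean of 1 to 10 FPKM in 15.

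**Figure D1:**
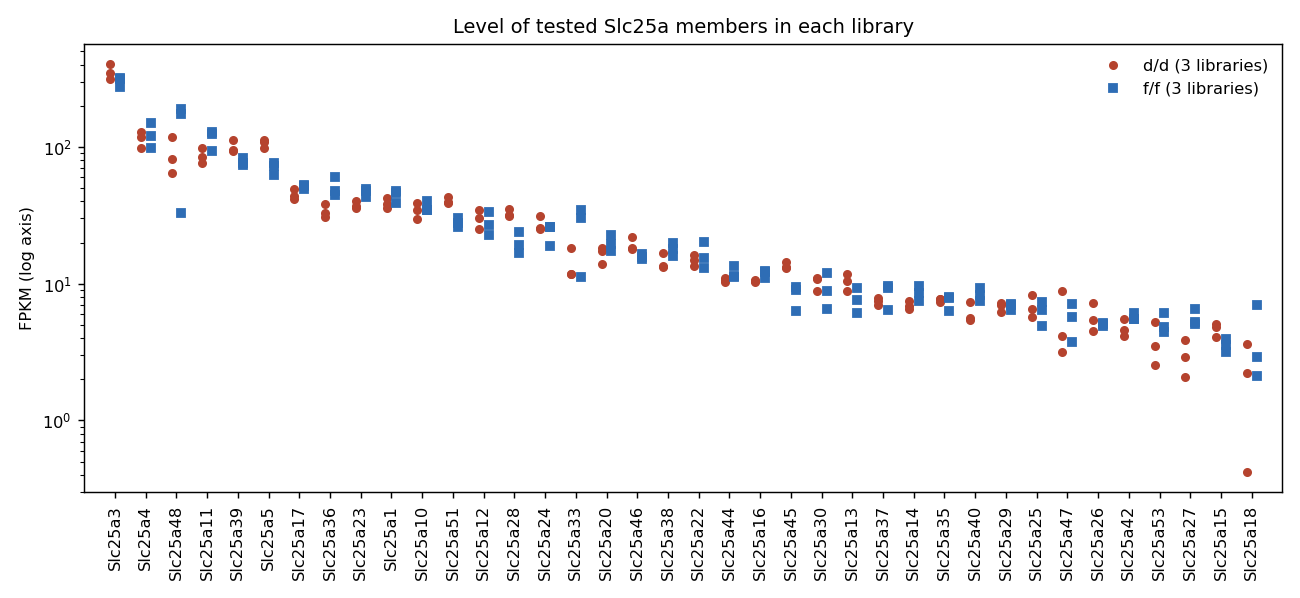
FPKM on a log axis of 38 tested Slc25a members in every library, ordered by mean level, with d/d libraries as red circles left of f/f libraries as blue squares. Slc25a3 stands at the top at 312 to 402 FPKM in d/d and 276 to 318 FPKM in f/f, and Slc25a48 spans 33.0 to 189 FPKM within f/f.

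The members that rose have different substrates. Slc25a5 encodes the ADP/ATP carrier ANT2, the form known from dividing cells, and the proliferation markers given above were higher in d/d too; their part in its level was not tested. It was at 97.7, 112 and 108 FPKM in d/d and 62.6, 75.8 and 72.8 FPKM in f/f, so that the lowest d/d library lay above the highest f/f library. The means were 106 ± 7.34 FPKM in d/d and 70.4 ± 6.89 FPKM in f/f (SD, n = 3 each), a 1.51-fold higher level in d/d (log2 change 0.59, SE 0.11, limma adjusted p = 0.0243). Slc25a51 encodes the carrier that brings NAD into the matrix. It was at 39.0, 43.2 and 39.3 FPKM in d/d and 30.0, 27.7 and 26.1 FPKM in f/f, with no overlap of the groups. The level was 1.45-fold higher in d/d (log2 change 0.52, SE 0.10, limma adjusted p = 0.0242).

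Slc25a28 encodes mitoferrin 2, the iron importer of non-erythroid cells. It was at 31.4, 31.8 and 35.4 FPKM in d/d and 23.8, 19.2 and 16.9 FPKM in f/f, 1.65-fold higher in d/d with no overlap (log2 change 0.70, SE 0.14, limma adjusted p = 0.0274). Slc25a45 encodes a carrier that is less well characterized. It was at 14.4, 13.0 and 13.3 FPKM in d/d and 9.50, 8.99 and 6.32 FPKM in f/f, 1.64-fold higher in d/d with no overlap (log2 change 0.67, SE 0.16, limma adjusted p = 0.0467). For all 4 genes the direction held in every alternative fit, but calls depended on the processing and on single libraries. Slc25a45 lost its call with no filter on low values (limma adjusted p = 0.0824), with no variance trend (0.0537) and after rescaling to protein-coding nuclear genes (0.0713), and Slc25a51 lost it after that rescaling (0.0545). All 4 kept the call without f/f replicate 1, and Slc25a5 also without d/d replicate 1 (limma adjusted p = 0.0474). Without any other single library the adjusted p was 0.0696 to 0.0803 for Slc25a5, 0.0602 to 0.0984 for Slc25a51, 0.0655 to 0.105 for Slc25a28 and 0.0929 to 0.119 for Slc25a45.

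**Figure D2:**
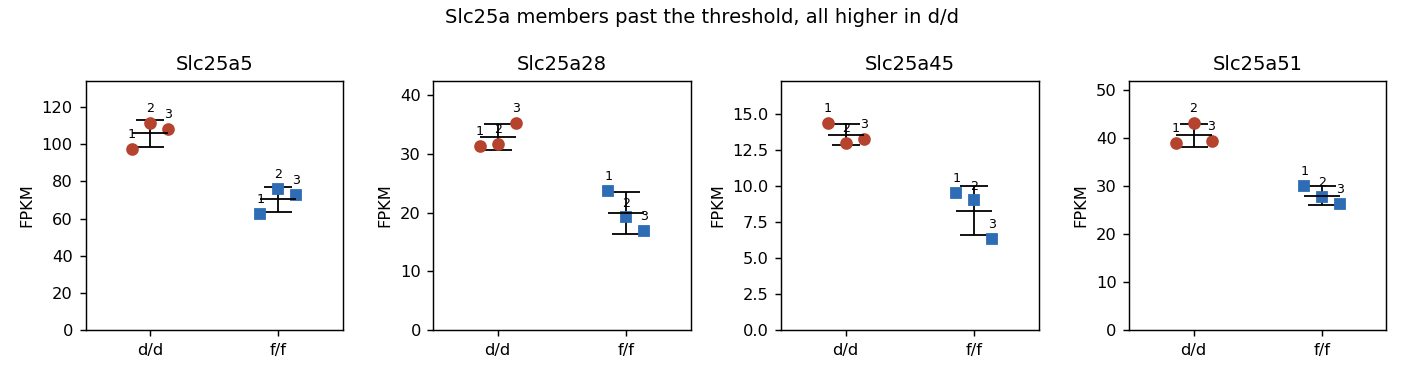
FPKM of the 4 Slc25a members past the threshold in each d/d library (red circles, left) and f/f library (blue squares, right), numbered by replicate, with mean and SD (n = 3 each). In each panel the 3 d/d values lie above the 3 f/f values; for Slc25a28 they are at 31.4 to 35.4 FPKM in d/d and 16.9 to 23.8 FPKM in f/f.

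These 4 genes lie on chromosome X (Slc25a5, 36795651 to 36798807, plus strand), chromosome 4 (Slc25a51, 45395923 to 45408766, minus strand) and chromosome 19 (Slc25a28, 43663801 to 43674881, minus strand, and Slc25a45, 5877808 to 5885878, plus strand) of GRCm38. For those of them with an entry, the 250 bases before the RefSeq start site (GRCm38.p6) are shown. They run 5′ to 3′ on the gene's strand, with GC boxes (GGGCGG on either strand) and CCAAT boxes (CCAAT on either strand) in capitals.
Slc25a5, chrX:36795347-36795596 (plus strand): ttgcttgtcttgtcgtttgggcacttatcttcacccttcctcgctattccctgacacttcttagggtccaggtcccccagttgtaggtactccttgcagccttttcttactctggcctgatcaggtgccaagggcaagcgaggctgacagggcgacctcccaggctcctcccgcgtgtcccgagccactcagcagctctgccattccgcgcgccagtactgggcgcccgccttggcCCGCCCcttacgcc
Slc25a28, chr19:43674882-43675131 (minus strand): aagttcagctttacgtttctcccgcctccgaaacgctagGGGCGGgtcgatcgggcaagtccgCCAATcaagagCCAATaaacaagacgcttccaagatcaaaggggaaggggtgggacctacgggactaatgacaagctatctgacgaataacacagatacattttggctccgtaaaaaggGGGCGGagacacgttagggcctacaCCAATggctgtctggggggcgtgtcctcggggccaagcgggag
Slc25a45, chr19:5877572-5877821 (plus strand): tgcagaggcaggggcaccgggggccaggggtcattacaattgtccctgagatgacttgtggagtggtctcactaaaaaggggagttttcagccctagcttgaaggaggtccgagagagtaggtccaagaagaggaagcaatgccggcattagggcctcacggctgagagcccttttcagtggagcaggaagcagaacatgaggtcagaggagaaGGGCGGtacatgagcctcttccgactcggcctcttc
All 3 windows hold a GC box and that of Slc25a28 also holds CCAAT boxes. A GC box was found in 24 of the 36 carrier promoters with an entry (66.7%), in 58.2% of the promoters of tested genes and in 32.9% of all 27025 promoters. A CCAAT box was found in 16 of the 36 (44.4%), 36.0% of tested and 34.5% of all. The E-box CACGTG was in 6 of the 36 (16.7%), 8.27% of tested and 6.05% of all, and in none of those printed. The ETS motif CCGGAAG was in 6 of the 36 (16.7%), 13.1% of tested and 7.05% of all. The palindromic NRF1 motif, of a regulator of nuclear genes for mitochondria, was in 0 of the 36, 1.52% of tested and 0.781% of all. Such matches describe the letters and are not binding sites.

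Among the ADP/ATP and phosphate carriers, Slc25a5 rose, and the other tested members did not pass the test. Slc25a3 was at 349, 312 and 402 FPKM in d/d and 276, 318 and 316 FPKM in f/f, with overlapping groups (log2 change 0.22, 95% interval -0.10 to 0.54, limma adjusted p = 0.327). Slc25a4, the ANT1 form of the ADP/ATP carrier best known from heart and muscle, was at 129.5, 98.2 and 119 FPKM in d/d and 98.0, 121 and 149 FPKM in f/f (log2 change -0.07, 95% interval -0.50 to 0.35, limma adjusted p = 0.819). Slc25a31, the germ cell form, was listed at 0 in all 6 libraries.

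Slc25a5 shares sequence with 7 copies among the annotated transcripts, 6 of them processed pseudogenes, at 91.6% to 98.3% identity over 300 bases or more. Their summed level was 38.3, 46.1 and 50.1 FPKM in d/d and 22.1, 26.7 and 35.3 FPKM in f/f, so the copies were higher in d/d too. The copy Gm5529 passed the test by itself (6.29 ± 0.372 FPKM in d/d, 3.02 ± 0.973 FPKM in f/f; SD, n = 3 each; limma adjusted p = 0.0409). Reads can be split between the gene and its copies. Summed with them, Slc25a5 had a log2 change of 0.61 (limma adjusted p = 0.0314).

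Of the 4 iron and glutathione carriers, 1 rose and 0 fell by limma (2 were higher and 1 lower at an unadjusted p under 0.05). Slc25a28 rose, while Slc25a37, the mitoferrin 1 of erythroid cells, was at 6.97, 7.51 and 7.91 FPKM in d/d and 9.66, 9.33 and 6.46 FPKM in f/f (log2 change -0.15, limma adjusted p = 0.599). Slc25a39, required for glutathione import into mitochondria, was the most abundant of the group. It was at 94.97, 93.3 and 113 FPKM in d/d and 73.7, 82.5 and 76.6 FPKM in f/f, a separation that missed the threshold (log2 change 0.36, SE 0.11, limma adjusted p = 0.0841) and passed it after quantile normalization (0.0447). Its paralog Slc25a40 had the opposite direction, at 5.41, 5.57 and 7.29 FPKM in d/d and 9.34, 8.29 and 7.46 FPKM in f/f, without overlap and short of the threshold (log2 change -0.41, SE 0.16, limma adjusted p = 0.141). Reads can be split between Slc25a40 and a pseudogene copy, Gm5066, with 96.3% identity over 724 bases. When this copy was added, the groups overlapped (log2 change -0.47, limma adjusted p = 0.172), in a fit chosen after the data were seen.

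Among 8 tested carriers of nucleotides and cofactors 1 rose (Slc25a51) and 0 fell by limma (1 lower at an unadjusted p under 0.05). Of the 8, 3 had d/d values all below f/f (17.4% of all genes tested did) and 1 had them all above (18.1%). Slc25a17, the peroxisomal carrier of adenine nucleotides and cofactors, was the most abundant, at 41.9, 44.0 and 49.3 FPKM in d/d and 49.6, 51.5 and 52.4 FPKM in f/f (log2 change -0.18, limma adjusted p = 0.266). Slc25a36, a pyrimidine nucleotide carrier, was at 30.8, 38.1 and 32.8 FPKM in d/d and 60.5, 48.0 and 44.8 FPKM in f/f. Its mean was 1.51-fold lower in d/d and just missed the threshold (log2 change -0.57, SE 0.14, limma adjusted p = 0.0518). A pseudogene copy with 99.6% identity over 544 bases, Gm13217, was at 5.25, 5.73 and 4.99 FPKM in d/d and 10.02, 9.82 and 8.17 FPKM in f/f, and it fell (log2 change -0.71, limma adjusted p = 0.0227). Reads can be split between Slc25a36 and this copy, so the fall of the copy may not be a separate result. The sum of Slc25a36 and this copy fell as well (log2 change -0.61, limma adjusted p = 0.0398), in a fit chosen after the data were seen. Slc25a16, whose substrate is debated, did not overlap either, at 10.4, 10.3 and 10.7 FPKM in d/d and 10.98, 12.4 and 12.3 FPKM in f/f (limma adjusted p = 0.330). The S-adenosylmethionine carrier Slc25a26 and the coenzyme A carrier Slc25a42 had log2 changes of 0.13 and -0.23.

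For Slc25a33, the other pyrimidine nucleotide carrier, the call depended on f/f replicate 1. It was at 11.7, 11.9 and 18.3 FPKM in d/d and 11.1, 30.5 and 34.9 FPKM in f/f, where replicate 1 lay at the d/d level. It missed the threshold with all libraries (log2 change -0.71, SE 0.42, limma adjusted p = 0.306). Without f/f replicate 1 the log2 change was -1.20 (limma adjusted p = 0.0221), and without both replicates numbered 1 it was -1.09 (limma adjusted p = 0.0427). Slc25a48, which has been linked to mitochondrial choline import, had the same form among the libraries, at 81.7, 64.4 and 118 FPKM in d/d and 33.0, 189 and 174 FPKM in f/f. Its log2 change was -0.27 with all libraries (SE 0.65, limma adjusted p = 0.819), -1.08 without f/f replicate 1 (limma adjusted p = 0.0462) and -1.05 without both replicates numbered 1 (limma adjusted p = 0.0872). It turned to 0.16 without f/f replicate 2 and to 0.10 without f/f replicate 3.

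Slc25a48 was placed with the amino acid carriers, and the rest of that group gave 0 calls in either direction by limma. Of all 9 tested in the group, Slc25a48 included, 0 had an unadjusted p under 0.05. The aspartate/glutamate carriers of the malate-aspartate shuttle were at 24.9, 30.2 and 34.5 FPKM in d/d and 33.3, 27.0 and 22.7 FPKM in f/f for Slc25a12, and at 8.92, 11.8 and 10.5 FPKM in d/d and 9.30, 7.63 and 6.09 FPKM in f/f for Slc25a13 (log2 change 0.40, limma adjusted p = 0.185). The ornithine carrier Slc25a15 did not overlap between groups, at 4.06, 5.11 and 4.79 FPKM in d/d and 3.94, 3.19 and 3.55 FPKM in f/f (log2 change 0.31, limma adjusted p = 0.234). The glycine carrier Slc25a38, needed for heme synthesis, was at 16.8, 13.2 and 13.4 FPKM in d/d and 15.9, 18.0 and 19.8 FPKM in f/f (log2 change -0.29, limma adjusted p = 0.215). The glutamate carrier Slc25a18 ranged from 0.422 to 3.60 FPKM in d/d and from 2.11 to 6.99 FPKM in f/f, and a difference was not detectable at this spread (log2 change -0.73, SE 0.52). The glutamate carrier Slc25a22, the branched-chain amino acid carrier Slc25a44 and the basic amino acid carrier Slc25a29 had log2 changes of -0.10, -0.16 and -0.0040.

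The carriers of di- and tricarboxylates had lower means in d/d in all 3 tested genes, with 0 calls by limma and 1 gene at an unadjusted p under 0.05. Slc25a11, the oxoglutarate carrier that works with Slc25a12 and Slc25a13 in the malate-aspartate shuttle, was the most abundant, at 84.7, 76.3 and 97.6 FPKM in d/d and 92.7, 129 and 124 FPKM in f/f. It missed the threshold (log2 change -0.40, SE 0.16, limma adjusted p = 0.151), and its log2 change was -0.55 without f/f replicate 1 (limma adjusted p = 0.0494). Its exons overlap those of Rnf167 on the opposite strand over 189 bases (8.92% of its exonic length), and Rnf167 fell, being 1.39-fold lower in d/d (45.8 ± 1.46 FPKM in d/d, 63.8 ± 5.11 FPKM in f/f; SD, n = 3 each; limma adjusted p = 0.0316). The citrate carrier Slc25a1 and the dicarboxylate carrier Slc25a10 had log2 changes of -0.17 and -0.09. The acylcarnitine carrier Slc25a20, which feeds fatty acid oxidation, was at 18.3, 14.01 and 17.3 FPKM in d/d and 17.4, 19.4 and 22.8 FPKM in f/f (log2 change -0.25, 95% interval -0.60 to 0.10, limma adjusted p = 0.305).

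The calcium-regulated carriers of ATP-Mg and phosphate and the uncoupling protein-like carriers, 3 tested genes each, had 0 calls by limma and 1 lower gene each at an unadjusted p under 0.05. Of the calcium-regulated carriers, Slc25a23 was the most abundant, at 40.5, 35.9 and 37.1 FPKM in d/d and 47.3, 49.5 and 43.2 FPKM in f/f, without overlap (log2 change -0.30, SE 0.10, limma adjusted p = 0.106). Slc25a24 was at 25.1, 25.4 and 31.2 FPKM in d/d and 18.7, 25.9 and 26.2 FPKM in f/f (log2 change 0.21, limma adjusted p = 0.432), and Slc25a25 had a log2 change of 0.12. The uncoupling protein-like Slc25a27, known mainly from brain, was at 3.86, 2.10 and 2.92 FPKM in d/d and 6.51, 5.28 and 5.05 FPKM in f/f, 1.90-fold lower in d/d and short of the threshold (log2 change -0.76, SE 0.21, limma adjusted p = 0.0630). Slc25a14 was at 7.46, 6.53 and 6.85 FPKM in d/d and 9.64, 8.62 and 7.49 FPKM in f/f (log2 change -0.27, limma adjusted p = 0.239). Slc25a30, the most abundant of the uncoupling protein-like carriers, was at 11.1, 8.83 and 10.8 FPKM in d/d and 6.58, 8.85 and 12.0 FPKM in f/f, with overlapping groups.

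**Figure D3:**
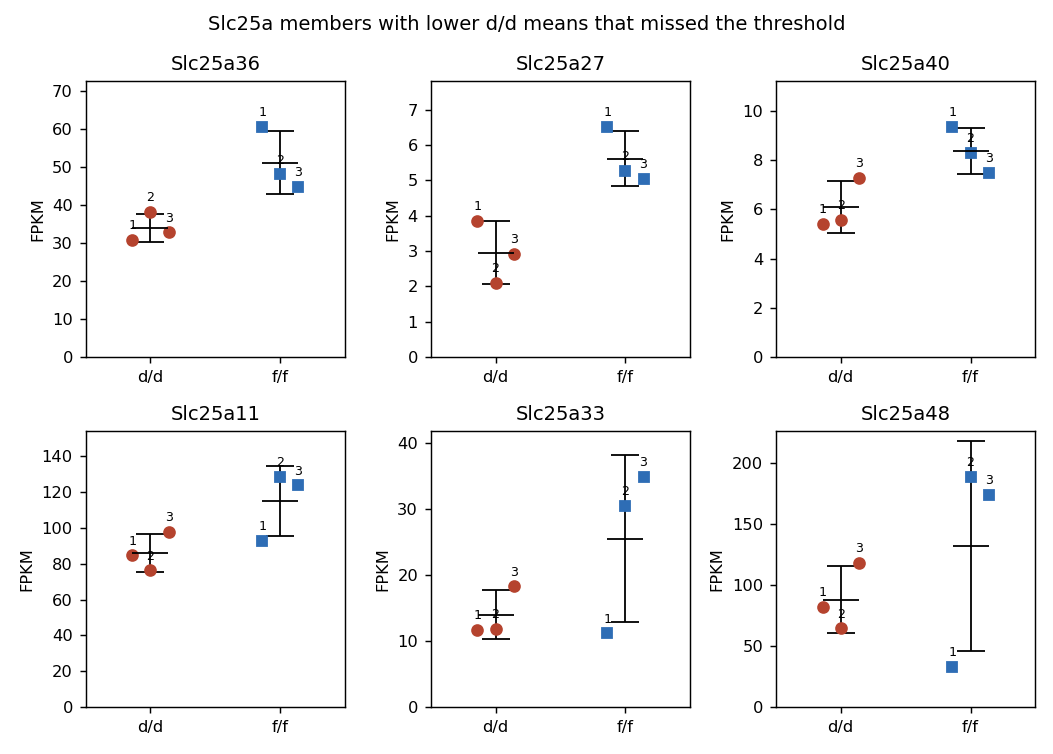
FPKM of 6 Slc25a members with lower d/d means that missed the threshold, in each d/d library (red circles, left) and f/f library (blue squares, right), numbered by replicate, with mean and SD (n = 3 each). Slc25a36, Slc25a27 and Slc25a40 separate the groups, whereas in Slc25a33 and Slc25a48 f/f replicate 1 (11.1 and 33.0 FPKM) lies below every d/d library.

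Among the less characterized carriers, Slc25a46, an outer membrane protein that acts in mitochondrial shape and fission, was the most abundant. It was at 18.2, 18.0 and 22.05 FPKM in d/d and 16.4, 15.1 and 15.8 FPKM in f/f, without overlap (log2 change 0.28, SE 0.12, limma adjusted p = 0.165). Slc25a35 overlapped between groups, at 7.72, 7.36 and 7.67 FPKM in d/d and 6.35, 8.05 and 7.89 FPKM in f/f, and 31.3% of its exonic length overlaps Rangrf on the opposite strand. Slc25a47, known from liver, and Slc25a53 had log2 changes of -0.10 and -0.39 with SEs of 0.36 and 0.24.

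The members below 1 FPKM were left out of the test. Slc25a43 was at 0.412, 0.636 and 0.349 FPKM in d/d and 1.76, 0.930 and 1.01 FPKM in f/f, without overlap, and had a limma adjusted p of 0.137 in the fit with no filter. Slc25a43 ends upstream of Slc25a5 on the same strand of chromosome X (36743659 to 36777202), and the d/d level of these neighbours lay on opposite sides of f/f. Slc25a34 was at 0.0480 FPKM in 1 d/d library (replicate 1), while the other d/d libraries list it at 0, and at 0.116, 0.163 and 0.291 FPKM in f/f (limma adjusted p = 0.120 with no filter). Slc25a21, an oxodicarboxylate carrier, ranged from 0.357 to 0.629 FPKM in d/d and from 0.105 to 0.849 FPKM in f/f. Slc25a2 and Slc25a41 were at or below 0.186 FPKM in every library. Slc25a31, Slc25a32, the folate and FAD carrier, and Slc25a54 were listed at 0 in every library. The ATP synthase subunit Atp5a1, which every cell with mitochondria uses, was likewise listed at 0 throughout, so such zeros can be failed estimates.

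**Figure D4:**
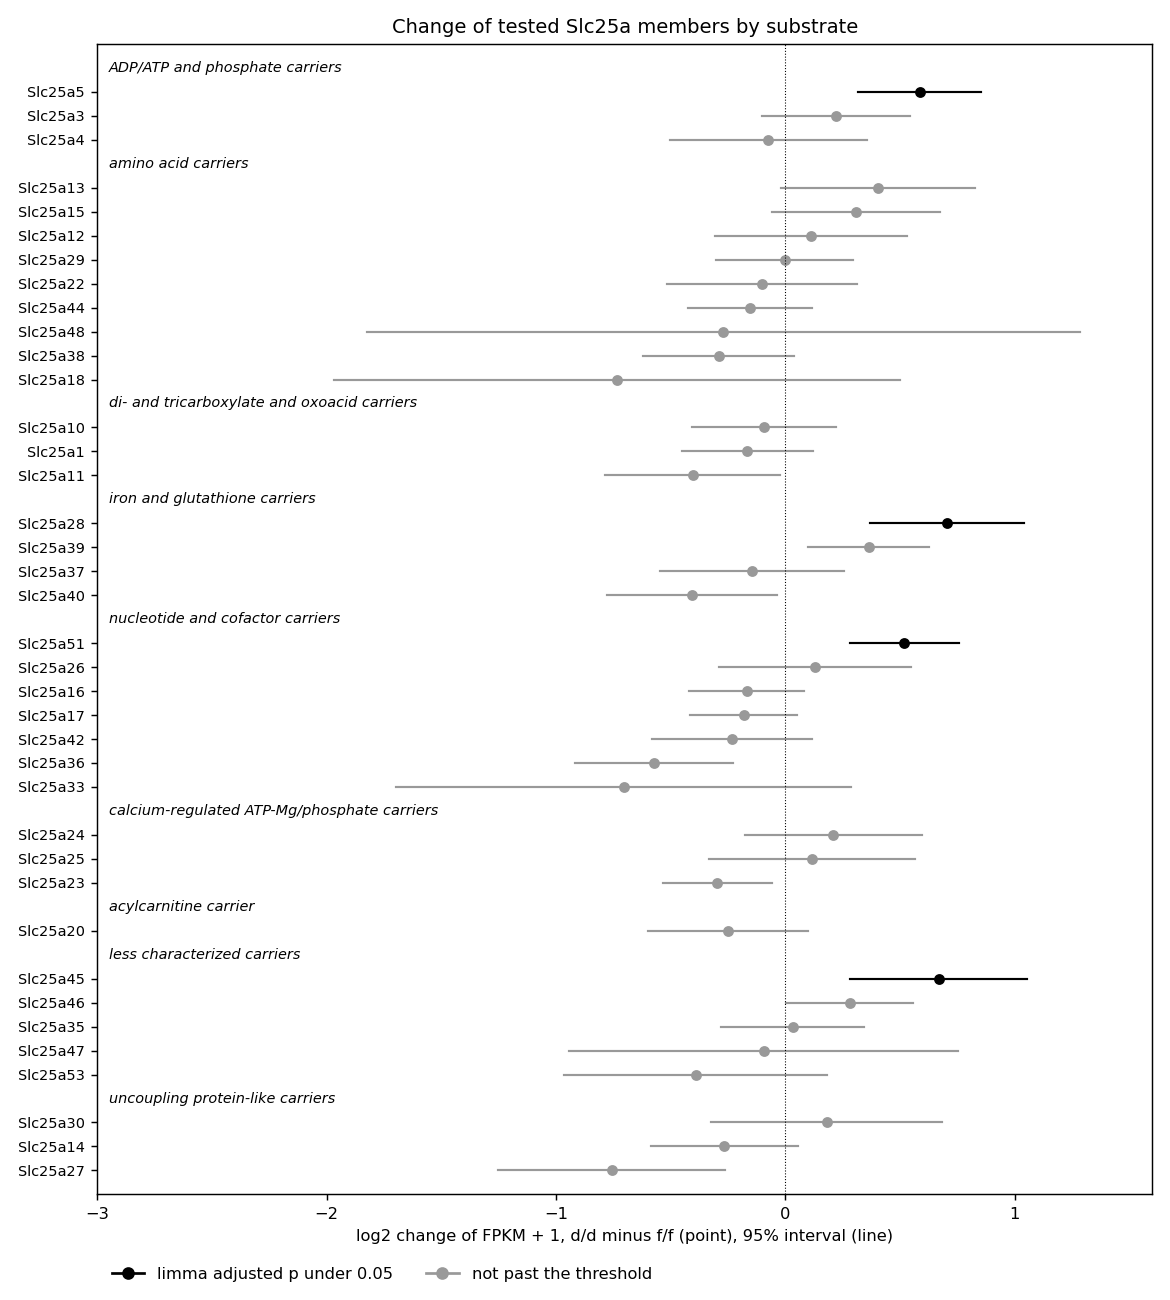
Log2 change of FPKM + 1 (d/d minus f/f) with its 95% interval from limma for 38 tested Slc25a members, grouped by transported substrate. Slc25a48 was placed with the amino acid carriers. The 4 called members (black) all lie right of 0, at 0.52 to 0.70, and Slc25a27 lies left of 0 at -0.76.

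To describe the balance between related carriers, the share of 1 member in the summed FPKM was taken for 7 pairs, which were chosen with results of these data known. Several pairs hold members already given above as called or without overlap, so the shares in part restate those values and are not tested. In 5 of the 7 pairs the d/d and f/f shares did not overlap. The 35.6% of single genes with no overlap is for levels and not for shares within pairs. Slc25a5 held 43.0%, 53.2% and 47.7% of the ADP/ATP carrier pair with Slc25a4 in d/d and 39.0%, 38.5% and 32.8% in f/f. Slc25a28 held 81.8%, 80.9% and 81.7% of the mitoferrin pair with Slc25a37 in d/d and 71.1%, 67.3% and 72.3% in f/f. Slc25a39 held 94.3% ± 0.348 of the pair with Slc25a40 in d/d and 90.2% ± 1.30 in f/f, Slc25a13 held 25.9% ± 2.44 of the pair with Slc25a12 in d/d and 21.7% ± 0.473 in f/f, and Slc25a24 held 41.8% ± 3.69 of the pair with Slc25a23 in d/d and 33.5% ± 4.75 in f/f (SD, n = 3 each). The shares overlapped in the pairs of Slc25a33 with Slc25a36 and of Slc25a22 with Slc25a18.

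**Figure D5:**
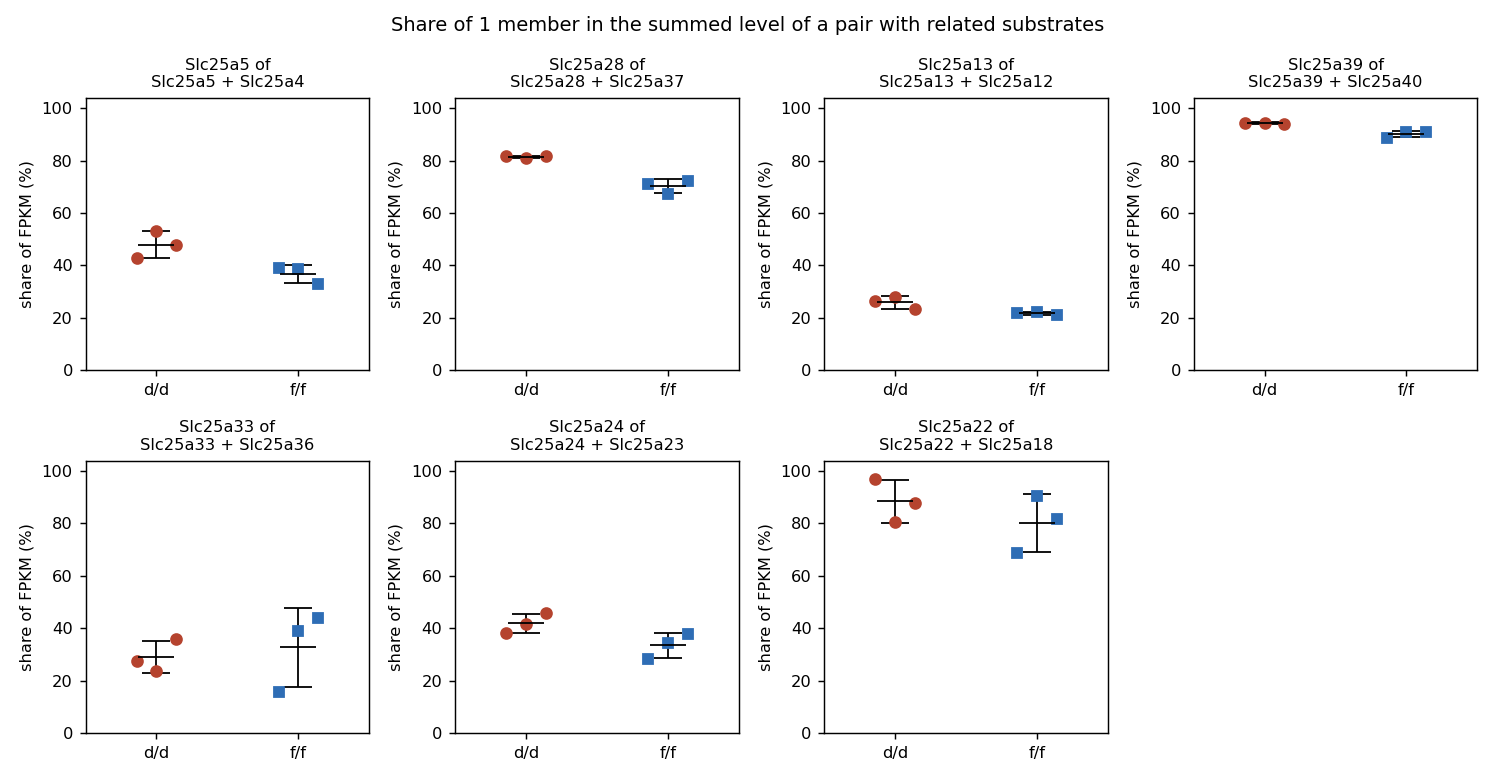
Share (%) of 1 member in the summed FPKM of a pair of Slc25a members with related substrates, in each d/d library (red circles, left) and f/f library (blue squares, right) with mean and SD (n = 3 each). The groups are separate in 5 panels, among them the mitoferrin pair, with Slc25a28 at 80.9% to 81.8% in d/d and 67.3% to 72.3% in f/f.

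Genes that act with the carriers were read from 14 lists, 175 tested genes in all, of which 11 rose and 3 fell (6.04% of all genes tested were called higher and 4.97% lower). For the counts below at an unadjusted p under 0.05, 2373 of all 15438 genes tested were higher and 2189 lower. Of the 13 genes of the carrier import machinery, 3 rose and 0 fell by limma, while 7 were higher and 0 lower at an unadjusted p under 0.05, with a median log2 change of 0.36 against -0.01 over all genes tested. All 3 that rose encode small TIM proteins of the intermembrane space. Timm10b was at 106, 101 and 104.3 FPKM in d/d and 48.6, 60.6 and 66.6 FPKM in f/f (log2 change 0.83, SE 0.13, limma adjusted p = 0.0143). Timm8a1 was 2.02-fold higher in d/d (6.02 ± 1.29 FPKM in d/d, 2.98 ± 0.480 FPKM in f/f; SD, n = 3 each; limma adjusted p = 0.0409). Timm10, a chaperone that binds carriers in transit, was 1.54-fold higher in d/d (18.1 ± 2.44 FPKM in d/d, 11.7 ± 1.35 FPKM in f/f; SD, n = 3 each; limma adjusted p = 0.0449). The calls over the 14 lists depended on single libraries: 7 rose and 5 fell without f/f replicate 1, 3 rose and 0 fell by limma without d/d replicate 1 or 2, whereas 1 rose and 0 fell without d/d replicate 3, f/f replicate 2 or f/f replicate 3.

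Of 8 genes in the list of glutathione enzymes, beside Slc25a39, 2 rose and 1 fell, with a median log2 change of 0.23. Gclc, the catalytic subunit of the rate-limiting enzyme of glutathione synthesis, was at 70.2, 88.5 and 103.7 FPKM in d/d and 47.2, 39.6 and 39.6 FPKM in f/f (log2 change 1.02, SE 0.16, limma adjusted p = 0.0141). The glutathione peroxidase Gpx1 was 1.66-fold higher in d/d (520 ± 43.2 FPKM in d/d, 314 ± 27.4 FPKM in f/f; SD, n = 3 each; limma adjusted p = 0.0184). The mitochondrial glutaredoxin Glrx2 fell, at 24.9, 20.2 and 24.4 FPKM in d/d and 33.9, 34.4 and 31.3 FPKM in f/f (limma adjusted p = 0.0385). Of 11 iron, heme and iron-sulfur enzymes, beside the mitoferrins, 0 rose by limma (1 higher at an unadjusted p under 0.05) and 1 fell: Ppox, of the heme pathway, was at 15.2, 17.1 and 16.6 FPKM in d/d and 23.7, 22.8 and 21.1 FPKM in f/f (limma adjusted p = 0.0401). Of 7 ornithine and urea-cycle enzymes, beside Slc25a15, 1 rose and 1 fell. Arg1, which makes ornithine from arginine and is also known from macrophages, was at 11.7, 19.9 and 13.6 FPKM in d/d and 4.96, 1.44 and 1.44 FPKM in f/f (log2 change 2.26, SE 0.39, limma adjusted p = 0.0176). The macrophage markers given above moved with it, and their part in it was not tested. Asl, which splits argininosuccinate, was at 18.5, 15.97 and 15.96 FPKM in d/d and 28.6, 81.3 and 75.7 FPKM in f/f (limma adjusted p = 0.0379).

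Of 57 nuclear genes of the respiratory chain, 1 rose and 0 fell by limma (10 higher and 1 lower at an unadjusted p under 0.05), with a median log2 change of 0.15. It was Uqcrq, a subunit of complex III, at 283, 260 and 306 FPKM in d/d and 121, 176 and 157 FPKM in f/f (limma adjusted p = 0.0184). Of 9 tested protein genes of mitochondrial DNA 2 rose and 0 fell by limma (5 higher and 0 lower at an unadjusted p under 0.05). All 9 had a positive log2 change, and 7 had d/d values all above f/f, as did 18.1% of all genes tested. All are read from mitochondrial DNA, whose share of FPKM was higher in d/d as given above, so they are not 9 separate results. In mt-Co3 and mt-Nd3 the groups overlapped. These genes were listed at means of 1.79 and 7.16 FPKM, against 12269 FPKM for mt-Co1, and may be failed estimates. mt-Nd2, of complex I, was 3.00-fold higher in d/d (5815 ± 1590.2 FPKM in d/d, 1941 ± 568 FPKM in f/f; SD, n = 3 each; limma adjusted p = 0.0251), and mt-Nd1 was 2.45-fold higher (limma adjusted p = 0.0476). Of 11 regulators of mitochondrial biogenesis 2 rose: the coactivators Ppargc1a, 2.45-fold higher in d/d (5.37 ± 0.496 FPKM in d/d, 2.19 ± 0.782 FPKM in f/f; SD, n = 3 each; limma adjusted p = 0.0296), and Pprc1, 1.75-fold higher (limma adjusted p = 0.0367).

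The remaining 7 lists, 59 tested genes, gave 0 calls by limma in either direction, with 6 genes higher and 6 lower at an unadjusted p under 0.05. The median log2 change was 0.11 over 14 ATP synthase genes, where Atp5e and Atp5b were the most abundant at 623 ± 115 and 576 ± 149.7 FPKM in d/d and 555 ± 139 and 463 ± 105 FPKM in f/f (SD, n = 3 each). It was 0.07 over 8 genes of the malate-aspartate shuttle and citrate metabolism (Mdh2 and Mdh1 at log2 changes of 0.09 and -0.02), and -0.14 over 10 genes of the carnitine shuttle and fatty acid oxidation (Hadha and Acadl at -0.20 and -0.01). Of these 10 genes, 2 had a positive and 8 a negative log2 change, and 0 were higher and 3 lower at an unadjusted p under 0.05. In 4 of them d/d values lay all below f/f and in 1 all above (17.4% and 18.1% of all genes tested). The median was -0.02 over 5 genes of outer membrane channels and the pyruvate carrier (Vdac1 and Vdac2 at 0.16 and -0.02), 0.15 over 12 folate and cofactor enzymes (Rfk and Sfxn1 at -0.28 and 0.44), and -0.09 over 7 genes of mitochondrial calcium handling (Smdt1 and Micu2 at 0.17 and -0.24). Single log2 changes ran from -0.86 to 0.16 in the first of these lists and from -1.32 to 0.54 in the folate and cofactor list. Of carrier family members with other symbols, the 3 tested had a median of -0.01, with Ucp2 at 361 ± 28.1 FPKM in d/d and 363 ± 18.3 FPKM in f/f (SD, n = 3 each).

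METTL3 methylates adenosine within a consensus that includes GGACT, so these letters were counted on the longest coding transcript (GENCODE M21) of each gene. This counts letters and measures no methylation. The 39 tested carriers had a median of 1.16 GGACT per kilobase, against 1.06 over 13339 tested coding genes. The carriers that rose held 2 (Slc25a5, 1.61 per kilobase), 0 (Slc25a28), 6 (Slc25a45, 2.31 per kilobase) and 5 (Slc25a51, 1.13 per kilobase) such sites. Over all coding genes the median was 1.16 per kilobase among those that rose and 1.08 among those that fell.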

How the data were processed

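RNA-seq of mouse oviducts was deposited as 1 table of gene values per library, 3 labelled Mettl3 d/d and 3 labelled Mettl3 f/f. HISAT2 2.2.1 and Cufflinks 2.2.1 are named per the submitters' processing notes, as are mouse builds mm9 and mm10 with no role given. The unit, FPKM as deposited by the authors, was inferred from the tools and from the values: low values fell on whole steps of 1 fragment in 92.8% to 94.1% of cases, within a tolerance of 1%. The strand setting is not given in the sources used here. Values of 114 shared symbols were summed. Of 55483 features, 99.4% were found in GENCODE M21 (GRCm38), which gave the coordinates.

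Genes with a mean of at least 1 FPKM entered a limma 3.58.1 fit (R 4.3.3) of log2(FPKM + 1), with genotype as its term (variance trend, two-sided, Benjamini-Hochberg adjusted p under 0.05), a procedure tested on simulated data. The simulated noise was independent in every gene, so it could not show the effect of a library that stands apart. The pseudocount understates changes of low genes. Similar copies were found with blastn 2.17.0 (at least 90% identity over 300 bases). The members, lists and tests were chosen with earlier results of these data known. Any member could be named; values in every library were planned for called members and the most abundant of each substrate group, and others shown so were chosen after their values were seen. Of a pathway list, up to 4 called genes or the 2 most abundant were named. Alternatives were other pseudocounts, filters and scalings, a fit without variance trend, a replicate block, leaving out libraries and summing copies. The single values of 1 member are not reported here, while counts and sums include it.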

Additional observations from a re-analysis of the deposited data

How the results depend on the processing

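The 4 carriers that rose kept their direction in every alternative. Rescaling to protein-coding nuclear genes left 2 carriers called higher (Slc25a5 and Slc25a28), and fits with no filter on low values or with no variance trend left 3 (without Slc25a45). With both replicates numbered 1 left out, Slc25a45 was not called (limma adjusted p = 0.0751), 1 carrier was called lower and 8 pathway genes were called higher. Carriers called lower also numbered 1 with near-identical copies summed, an alternative chosen after seeing the data. With no filter on low values, 599 of all genes were called higher and 508 lower, and 5 pathway genes higher and 0 lower by limma. Without the variance trend 1 pathway gene was called lower. Leaving out 1 library each gave 0 to 4 carriers higher and 0 to 3 lower, 184 to 942 of all genes higher and 124 to 853 lower, and 1 to 7 pathway genes higher and 0 to 5 lower. The causes were not tested.

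With the replicate number as a block, 0 carriers were called higher and 0 lower by limma, 174 of all genes were called higher and 102 lower, and 0 pathway genes were called in either direction. Correlations of the deviations over genes were -0.22, -0.06 and 0.0027 for same-numbered libraries. They ran from -0.28 to 0.28 for differently numbered ones. With 3 libraries per group such values cannot show whether equal numbers mark pairs, and the labels do not say. The main fit did not use the numbers, so the carrier calls depend on that choice.

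The sign of the log2 change turned only in carriers that were not called in the main fit of all 6 libraries. Slc25a29 was at 0.011 after quantile normalization and 0.00068 after trimmed mean scaling, against -0.0040 as deposited. Over the fits that left out 1 library, or both replicates numbered 1, the log2 changes that took both signs included those of Slc25a4 (-0.31 to 0.074), Slc25a10 (-0.19 to 0.0097), Slc25a12 (-0.016 to 0.37), Slc25a18 (-1.10 to 0.14), Slc25a22 (-0.24 to 0.064), Slc25a25 (-0.15 to 0.23), Slc25a26 (-0.026 to 0.26), Slc25a29 (-0.047 to 0.059), Slc25a30 (-0.068 to 0.37), Slc25a35 (-0.075 to 0.086), Slc25a47 (-0.46 to 0.16) and Slc25a48 (-1.08 to 0.16).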
